A study of Mus musculus with 6 samples.

Results

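The 10 genes described here are factors and targets of the integrated stress response and of amino-acid supply: Eif2ak4, Atf4, Ddit3, Trib3, Asns, Slc7a5, Slc3a2, Slc7a11, Sesn2 and Ddit4. They were taken by name from a list that was put together with earlier results of these data known, out of 24562 genes in the count table. Where a gene had several RefSeq transcripts, its row was chosen by the highest total over the 6 libraries, and this total was the only measured value that the rule used. All 10 genes passed the filter on low counts.

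RNA sequencing was performed on naive, that is unstimulated, bone marrow-derived macrophages (BMDMs), with 3 AclyM-KO and 3 control libraries. The series' design text names female mice, whereas the study's methods describe cultures from mice of both sexes in general, and no sex is given per library. AclyM-KO mice carry Acly alleles with loxP sites around a single exon (Acly fl/fl) and a Cre recombinase under the Lyz2 promoter, which is active in myeloid cells and so does not restrict the deletion to macrophages. Acly encodes ATP citrate lyase, which makes cytosolic acetyl-CoA from citrate. The labels call the controls WT, and the study describes its control mice as Cre-negative Acly fl/fl littermates, so both groups would carry the floxed alleles, and the presence of Cre and the loss of Acly cannot be told apart. Both groups were differentiated in medium conditioned by L929 cells, a source of macrophage colony-stimulating factor. The study describes replicates of such cultures as technical replicates of cells pooled from 3 mice, in which case the p-values given here measure the spread between libraries and not that between animals.

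The libraries held 19327459 to 44507233 counts over all transcripts, and AclyM-KO replicate 2 was the deepest. This library also stood apart from the other AclyM-KO libraries, with a chi-square per degree of freedom of 22.8 and 24.4 against replicates 1 and 3, whereas these differed from each other by 8.59 and the control pairs by 3.26 to 6.82. This measure was taken on raw counts and rises with depth, so it does not separate the depth of this library from other differences. The log2 fold change of each of the 10 genes without this library is therefore given beside its result. Acly itself fell to a fold of 0.422 (95% interval 0.382 to 0.466) of control, with every AclyM-KO library below every control library (adjusted p = 5.58e-07, edgeR). Markers of macrophages were abundant in all libraries, with 8 of 8 tested. Their summed level was 23750 to 24580 CPM (counts scaled to the total of the library) in control and 15080 to 17590 CPM in AclyM-KO. Of the 8, 3 (Csf1r, Lyz2 and Mertk) were called lower, or 37.5%, beside 5.65% of all genes tested. Lyz2, the gene whose promoter drives Cre, stood at 13030 to 13840 CPM in control and at 5606 to 6979 CPM in AclyM-KO, and the other 7 markers summed to 10710 to 10780 CPM and 9475 to 10610 CPM. Of the markers of other cells, 4 of 8 neutrophil and precursor genes were tested, with none called by edgeR or DESeq2 and none at an unadjusted p under 0.05, and a summed level of 27.5 to 31.1 CPM in control and 28.7 to 30.5 CPM in AclyM-KO. The dendritic, lymphoid, erythroid or mast cell, and fibroblast lists summed to at most 1.57 CPM in any library, with 0 of 5, 1 of 6, 3 of 6 and 2 of 6 genes at 0 in all 6 libraries, respectively. In bulk RNA, fewer cells of a type and less RNA per cell cannot be told apart.

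In the integrated stress response, kinases such as GCN2, the product of Eif2ak4, sense uncharged tRNA or other stress and phosphorylate the translation initiation factor eIF2. General translation then falls, whereas translation of the Atf4 mRNA rises, and the transcription factor ATF4 turns on genes for amino-acid synthesis, amino-acid uptake and tRNA charging, often together with C/EBP family partners. GCN2 and much of the control of ATF4 act after transcription, so transcript counts see only part of this pathway. In macrophages, amino-acid uptake also feeds the growth kinase complex mTORC1 and the synthesis of glutathione.

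Elements bound by ATF4 with C/EBP partners have the core TGATGNAA, so the promoters of the 10 genes were searched for it on both strands (TTNCATCA on the opposite strand). RefSeq promoter windows of build GRCm38.p6, from 250 bases before to 50 bases after the transcript start, were at hand for 9 of the 10 genes, all but Slc7a5. The core was found in 3 of the 9, Trib3, Asns and Slc7a11, whereas 1219 of 27025 genes with a window held it, in 1304 of 32851 windows (3.97%). No match was found in the windows of Atf4, Ddit3, Slc3a2, Sesn2, Ddit4 and Eif2ak4. The matching stretches are shown because these 3 genes were among those that rose, with the matched bases in capitals and the strand of the gene, 5′ to 3′. For Trib3 and Asns, 30 bases around the match are given, at chr2:152344028-152344057 and chr6:7693214-7693243. For Slc7a11, the 250 bases before the start are given, at chr3:50443614-50443863. All 3 genes lie on the minus strand.
Trib3: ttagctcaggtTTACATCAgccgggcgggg
Asns: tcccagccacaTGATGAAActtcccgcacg
Slc7a11: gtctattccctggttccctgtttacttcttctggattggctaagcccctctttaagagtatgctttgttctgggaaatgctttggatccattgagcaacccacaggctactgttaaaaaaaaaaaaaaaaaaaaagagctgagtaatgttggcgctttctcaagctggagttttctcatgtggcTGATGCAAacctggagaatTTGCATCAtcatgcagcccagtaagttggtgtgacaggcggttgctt
The Trib3 match began 15 bases into the RefSeq transcript and read on the opposite strand, but the GENCODE M21 start of the same transcript lies 28 bases further downstream, which places the match before the start by that annotation. The Asns match began 23 bases before the RefSeq start and read on the strand of the gene, and here the GENCODE M21 start lies 45 bases upstream of the RefSeq start, so that the match falls inside the transcript by GENCODE. Slc7a11 had a pair of matches, which began 66 and 47 bases before the start and read on opposite strands. A match is a description of the letters and not a measured binding site.

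Across the list, 6 of the 10 genes were higher in AclyM-KO than in control macrophages, namely Slc7a5, Trib3, Asns, Slc7a11, Atf4 and Slc3a2, and none was lower (edgeR quasi-likelihood test, Benjamini-Hochberg adjusted p of 0.05 or less over all 11470 genes tested). At an unadjusted p under 0.05 and with DESeq2 the counts were also 6 and 0. Of all genes tested, 12.3% were called, 6.70% higher and 5.65% lower. In each of these 6 genes every AclyM-KO library lay above every control library, which held for 16.3% of all genes, and for 16.6% the AclyM-KO libraries were all below. The remaining genes, Ddit3, Sesn2, Ddit4 and Eif2ak4, did not pass the threshold and had overlapping groups. On the log2 scale the median change was 0.55 over the 10 genes and 0.00 over all genes tested. Scaling by total counts in place of TMM moved the split of all calls from 54.2% to 64.4% higher and the median of all genes by 0.04 on the log2 scale, with 6 genes of the list still called.

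**Figure D1:**
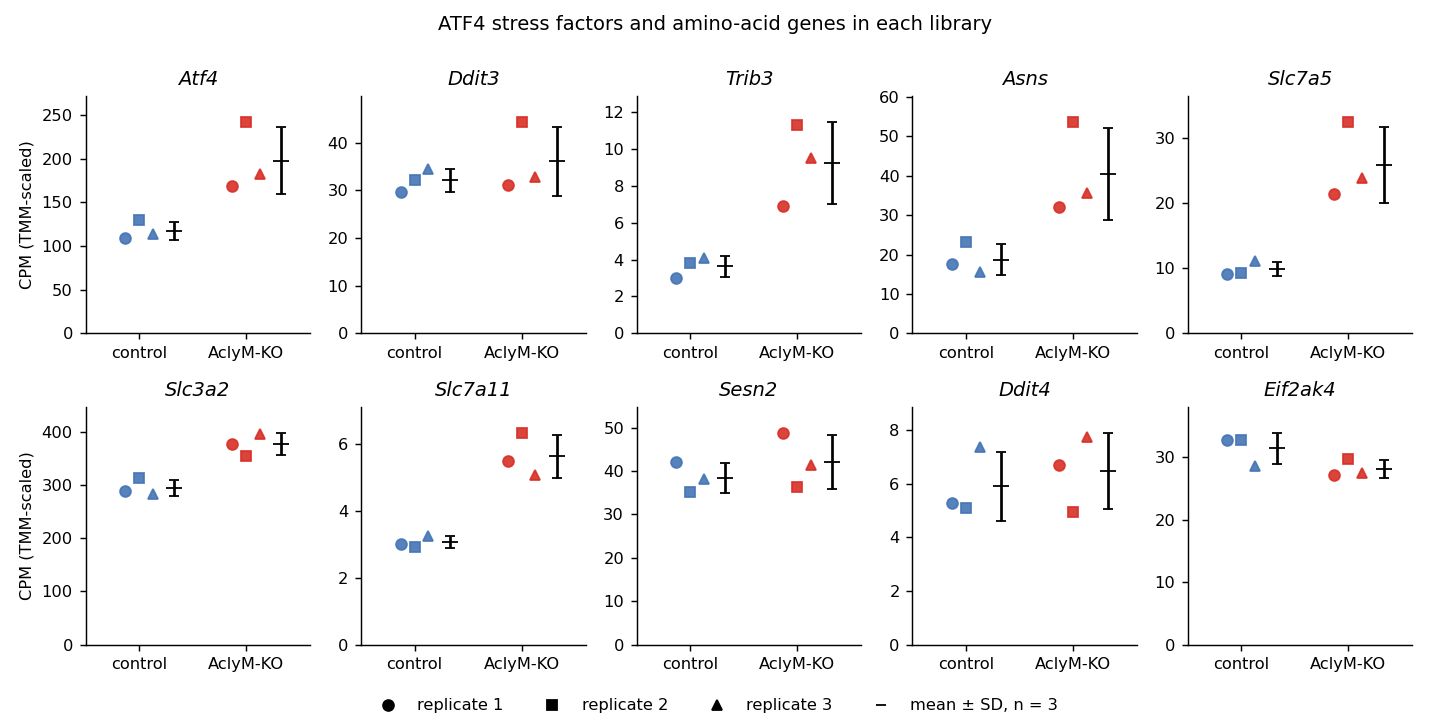
Level of each of the 10 genes in CPM, scaled by TMM, in the 3 control (blue) and 3 AclyM-KO (red) libraries, with the symbol giving the replicate and the bar the mean ± SD. In 6 panels all red points lie above all blue points, and in 7 panels the red square, AclyM-KO replicate 2, is the highest red point.

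Eif2ak4 (chromosome 2, 118388583 to 118475234, mm10), the kinase GCN2 that binds uncharged tRNA, was the only gene of the list with a fold change below 1. It stood at 32.8, 32.8 and 28.6 CPM in control replicates 1 to 3 and at 27.2, 29.7 and 27.5 CPM in AclyM-KO replicates 1 to 3. The groups overlapped, since control replicate 3 lay below AclyM-KO replicate 2. The log2 fold change was -0.16 (95% interval -0.36 to 0.05), with an adjusted p of 0.328 (edgeR), and it stayed between -0.22 and -0.12 in all 18 alternatives, with -0.20 without AclyM-KO replicate 2. A rise of the transcript by more than 1.04-fold lay outside the interval.

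Atf4 (chromosome 15, 80255184 to 80257545) encodes the transcription factor at the centre of the response. Its transcript stood at 109.6, 129.4 and 113.9 CPM in control and at 169.0, 242.1 and 182.7 CPM in AclyM-KO. All AclyM-KO libraries were above all controls, and AclyM-KO replicate 2 was well above the other knock-out libraries. The fold change was 1.69 (95% interval 1.40 to 2.03, adjusted p = 0.00247, edgeR). Without AclyM-KO replicate 2 the log2 fold change went from 0.75 to 0.58 with an adjusted p of 5.09e-06, and the gene was called in all 18 alternatives.

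Ddit3 (chromosome 10, 127290793 to 127296291) encodes CHOP, a stress-induced transcription factor that ATF4 induces in many cell types. It stood at 29.6, 32.1 and 34.6 CPM in control, and at 31.2, 44.4 and 32.7 CPM in AclyM-KO. Here AclyM-KO replicate 2 alone lay above the controls, and the other knock-out libraries fell within the control range. The fold change was 1.14 (95% interval 0.931 to 1.39, adjusted p = 0.406, edgeR). Without replicate 2 the log2 fold change was -0.01 (adjusted p = 0.982), so the sign rested on that library. The exons of Ddit3 share 68 bases with Mars, the methionyl-tRNA synthetase gene on the opposite strand. The libraries were strand-specific and were counted with the default settings of the tool, and how these treat strand was not examined here.

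Trib3 (chromosome 2, 152337425 to 152344060) encodes a pseudokinase that is induced by ATF4 and CHOP and feeds back on ATF4. It was low in control cells, where the libraries held 33, 51 and 45 counts, or 3.0, 3.81 and 4.06 CPM. The AclyM-KO libraries held 79, 299 and 109 counts, or 6.88, 11.3 and 9.51 CPM. The groups did not overlap, and the fold change was 2.58 (95% interval 1.87 to 3.56, adjusted p = 0.00205, edgeR). The gene was called in all 18 alternatives, with a log2 fold change between 1.17, without AclyM-KO replicate 2, and 1.53.

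Asns (chromosome 6, 7675165 to 7693209) encodes asparagine synthetase, which makes asparagine from aspartate and glutamine, and is a widely used target gene of ATF4. It stood at 17.6, 23.1 and 15.5 CPM in control and at 32.0, 53.7 and 35.7 CPM in AclyM-KO. All knock-out libraries were above the controls, and within both groups replicate 2 was the highest. The fold change was 2.18 (95% interval 1.63 to 2.92, adjusted p = 0.00371, edgeR). Without AclyM-KO replicate 2 the log2 fold change went down to 0.84, with an adjusted p of 9.39e-05.

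The genes whose log2 CPM followed that of Asns most closely over the 6 libraries, among 8354 other genes with a mean of at least 10 CPM, were Mospd2, Ide and Plscr1, with Pearson r of 0.998, 0.997 and 0.994. The 6 libraries comprise the 2 groups and the deep AclyM-KO replicate 2, so these values describe a shared order of libraries. The differences of these genes were much smaller than that of Asns, with log2 fold changes of 0.28, 0.23 and 0.41, and only Mospd2 was called (adjusted p = 0.0342, 0.0519 and 0.0571, edgeR). Mospd2 lost the call in 6 of 18 alternatives, among them each that left out 1 control library, and Ide and Plscr1 gained it in 5 and 4.

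Slc7a5, Slc3a2 and Slc7a11 encode chains of amino-acid exchangers at the cell surface, in which the heavy chain 4F2hc (Slc3a2) pairs with a light chain that carries the substrate. Slc7a5 (chromosome 8, 121881146 to 121907686) encodes LAT1, the light chain for large neutral amino acids such as leucine. It stood at 9.18, 9.27 and 11.1 CPM in control and at 21.4, 32.5 and 23.8 CPM in AclyM-KO, so that the lowest knock-out library was well above the highest control. The fold change of 2.67 (95% interval 2.08 to 3.42, adjusted p = 0.000326, edgeR) was the highest of the 10 genes, although its interval overlapped those of Trib3, Asns and Slc7a11. Without AclyM-KO replicate 2 the log2 fold change went from 1.42 to 1.20 (adjusted p = 1.34e-06).

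Slc3a2 (chromosome 19, 8706882 to 8723369) had the highest counts of the list and changed the least among the genes that passed. It stood at 288.7, 312.6 and 284.0 CPM in control and at 378.2, 355.8 and 397.2 CPM in AclyM-KO. The groups did not overlap, and AclyM-KO replicate 2 was here the lowest of the knock-out libraries. The fold change was 1.28 (95% interval 1.15 to 1.42, adjusted p = 0.00716, edgeR). The adjusted p rose to at most 0.0617 without control replicate 1 or without control replicate 3, with log2 fold changes of 0.34 and 0.33, compared with 0.35 over all libraries and 0.40 without AclyM-KO replicate 2.

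Slc7a11 (chromosome 3, 50364936 to 50499087) encodes xCT, the light chain that imports cystine in exchange for glutamate and so feeds glutathione synthesis. Its counts were low, 33, 39 and 36 in the control libraries, or 3.0, 2.92 and 3.25 CPM. The AclyM-KO libraries held 63, 167 and 58 counts, or 5.48, 6.31 and 5.06 CPM. Even at this low level the groups were apart, with a fold change of 1.86 (95% interval 1.41 to 2.46, adjusted p = 0.00891, edgeR). Without control replicate 2 the adjusted p was 0.0522 at a log2 fold change of 0.86, compared with 0.90 over all libraries and 0.79 without AclyM-KO replicate 2.

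Sesn2 and Ddit4 encode brakes on mTORC1: Sestrin2, a leucine sensor, and REDD1, which acts through the TSC complex. Sesn2 (chromosome 4, 132492804 to 132510456) stood at 42.0, 35.1 and 38.2 CPM in control and at 48.7, 36.4 and 41.4 CPM in AclyM-KO, and the groups overlapped. Its fold change was 1.09 (95% interval 0.918 to 1.3, adjusted p = 0.521, edgeR), and without AclyM-KO replicate 2 the log2 fold change went from 0.13 to 0.24 (adjusted p = 0.0794). Ddit4 (chromosome 10, 59949675 to 59951770) stood at 5.28, 5.08 and 7.40 CPM in control and at 6.70, 4.95 and 7.77 CPM in AclyM-KO. The lowest library of all for Ddit4 was AclyM-KO replicate 2 and the highest AclyM-KO replicate 3, so the groups overlapped throughout. Its fold change was 1.07 (95% interval 0.773 to 1.48, adjusted p = 0.819, edgeR), which leaves a rise by up to 1.48-fold or a fall to 0.773 within the interval. Without AclyM-KO replicate 2 its log2 fold change went from 0.10 to 0.30 (adjusted p = 0.314).

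**Figure D2:**
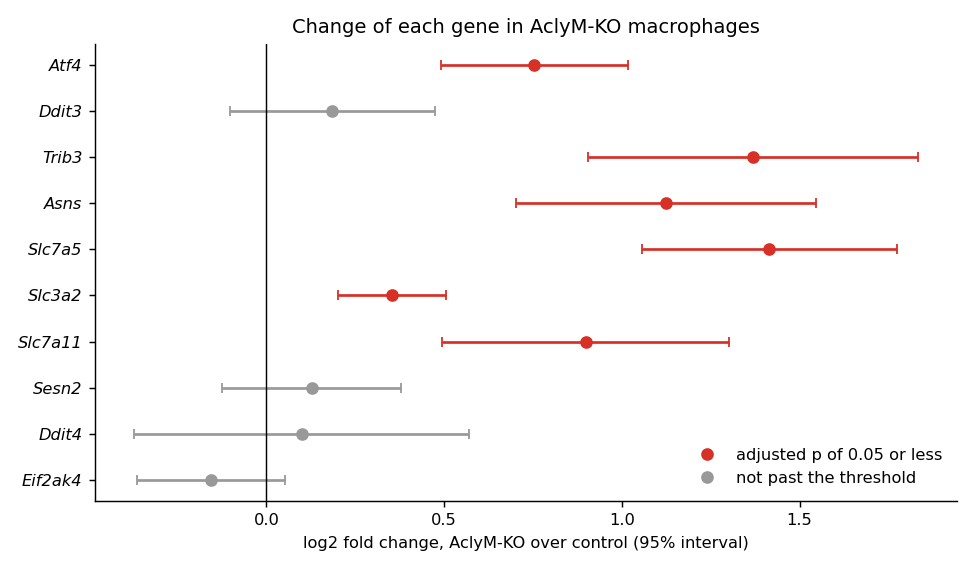
Log2 fold change of each gene in AclyM-KO over control with its 95% interval (x axis), from edgeR over 3 libraries per group, with red marking an adjusted p of 0.05 or less. The 6 red intervals lie above 0, from 0.35 for Slc3a2 to 1.42 for Slc7a5, and the 4 grey intervals include 0.

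AclyM-KO replicate 2 was the highest of the 3 knock-out libraries for 7 of the 10 genes, a position it took for 41.7% of all genes tested. Its level relative to the mean of replicates 1 and 3 was 1.58 for Asns, 1.43 for Slc7a5, 1.39 for Ddit3, 1.38 for both Atf4 and Trib3, 1.20 for Slc7a11 and 1.09 for Eif2ak4. For Slc3a2, Sesn2 and Ddit4 this library was instead the lowest, at 0.918, 0.807 and 0.684. Without it, the same 6 genes of the list were called higher and none lower, whereas 9.56% of all genes were then called higher and 8.92% lower.

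Levels per transcript length were compared in RPKM, which scales the counts to the length of the transcript and to the total of the library. In control macrophages the order ran from Slc3a2 with 92.3 ± 4.51 RPKM (SD, n = 3) over Atf4 with 38.8 ± 3.39 and Ddit3 with 20.5 ± 1.73 to Sesn2 with 6.29 ± 0.554 and Asns with 5.32 ± 1.09. Below these came Eif2ak4 with 3.43 ± 0.243, Ddit4 with 1.92 ± 0.431, Slc7a5 with 1.59 ± 0.187, Trib3 with 1.02 ± 0.161 and Slc7a11 with 0.189 ± 0.0119. The ranges of neighbours in this order did not overlap, except for Sesn2 with Asns and Ddit4 with Slc7a5. Thus the heavy chain was the most abundant transcript of the list and the cystine light chain the least.

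In AclyM-KO macrophages Slc3a2 with 121.0 ± 4.84 RPKM, Atf4 with 67.1 ± 14.3 and Ddit3 with 23.7 ± 5.14 kept their places. Asns, with 11.8 ± 3.59 RPKM, then stood above Sesn2, with 7.08 ± 0.973, and the ranges were apart. Slc7a5 with 4.31 ± 1.04 RPKM stood above Eif2ak4 with 3.15 ± 0.208, whereas Trib3 with 2.67 ± 0.674 overlapped both Eif2ak4 and Ddit4, the latter at 2.15 ± 0.442. Slc7a11 stayed the lowest with 0.356 ± 0.0462 RPKM.

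**Figure D3:**
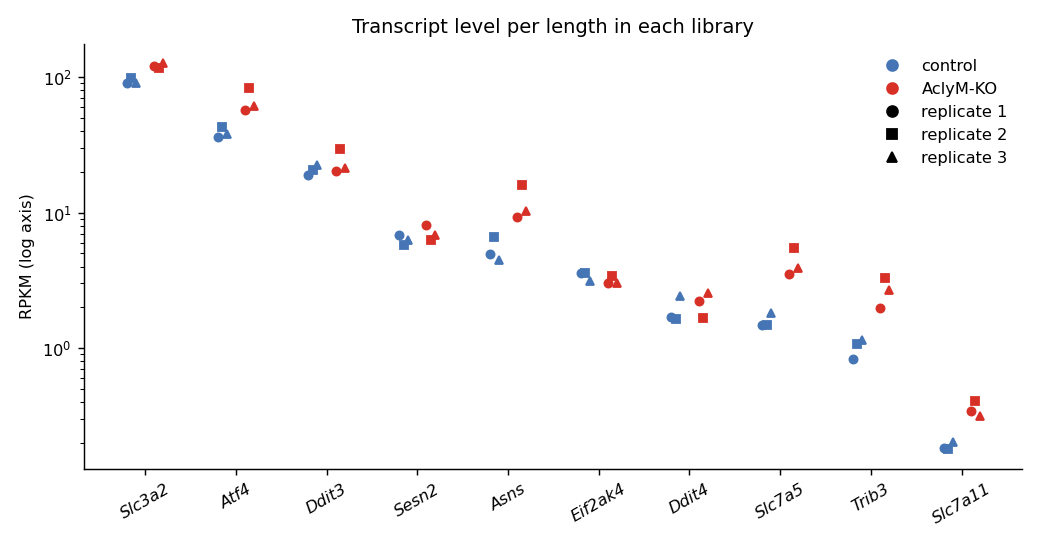
RPKM of each gene in each library on a log axis, ordered by the control mean, with control in blue and AclyM-KO in red and the symbol giving the replicate. Slc3a2 is the highest in both groups (92.3 and 121.0 RPKM) and Slc7a11 the lowest (0.189 and 0.356 RPKM), while Asns and Slc7a5 move up in the order in AclyM-KO.

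Because heavy and light chains form pairs, the ratio of their RPKM was taken in each library. Slc3a2 exceeded Slc7a5 by 60.8, 65.2 and 49.5 times in control and by 34.2, 21.2 and 32.3 times in AclyM-KO. The mean ratio was 58.5 ± 8.11 in control and 29.2 ± 7.0 in AclyM-KO (SD, n = 3), and the groups did not overlap. For Slc7a11 the ratio was 487.8, 543.8 and 443.3 in control and 349.9, 285.9 and 398.1 in AclyM-KO, also without overlap. Slc7a5 and Slc7a11 therefore gained relative to the heavy chain, in terms of transcripts. This did not hold for all its light chains, since Slc7a7 went from 8.68 ± 0.603 RPKM in control to 5.98 ± 1.15 in AclyM-KO and Slc7a8 from 22.1 ± 0.533 to 22.95 ± 0.753 (SD, n = 3). A further light chain gene, Slc7a6, went from 1.44 ± 0.233 to 2.09 ± 0.267 RPKM, with an adjusted p of 0.0521 (edgeR). Slc7a6 and Slc7a8 were chosen for mention after their values were seen. The ratios are given as a description, since with 3 against 3 libraries an exact permutation test cannot go below p = 0.10.

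Genes of the same pathway, in lists that were also made with earlier results of these data known, differed in how many of their members changed. Among 23 other target genes of ATF4 and CHOP, 18 were tested. In AclyM-KO 5 of them were higher and 1 lower, and the median change was 0.28 on the log2 scale. The genes that rose were Phgdh, Shmt2 and Mthfd2 of serine and one-carbon metabolism, the transcription factor gene Atf5 and the secreted stress factor gene Gdf15. Their log2 fold changes were 1.49 (adjusted p = 0.00427) for Phgdh, 1.10 (0.00715) for Mthfd2, 0.97 (0.000148) for Gdf15, 0.54 (0.00139) for Atf5 and 0.49 (0.00526) for Shmt2. Vegfa, for the angiogenic growth factor, fell by 0.60 (0.00179). Ppp1r15a, which encodes the stress-induced eIF2 phosphatase subunit GADD34, changed by -0.20 on the log2 scale (adjusted p = 0.325) and was chosen for mention after its value was seen. The share of tested genes higher was 27.8%, beside 6.70% of all genes. The number of higher genes became 8 without AclyM-KO replicate 1 and 8 without AclyM-KO replicate 2, where 9.56% of all genes were higher.

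Among the other eIF2 kinases and the eIF2 machinery, 15 of 15 genes were tested, and only Eif2b5, a subunit of the eIF2 exchange factor, was higher, by 0.33 on the log2 scale (adjusted p = 0.0257). This 1 of 15, or 6.67%, is near the 6.70% of all genes called higher. None was lower with edgeR or DESeq2, 3 were higher and 1 lower at an unadjusted p under 0.05, and the median was 0.02. Eif2ak3, which encodes the ER stress kinase PERK, had the next smallest adjusted p (0.0788) with a log2 fold change of -0.24. Eif2s1, the alpha subunit of eIF2, and Impact, an inhibitor of GCN2 activation, came next with 0.25 (0.139) and 0.17 (0.174). Eif2b5 was no longer called when any 1 control library or AclyM-KO replicate 1 was left out, and Eif2ak3 was called lower without AclyM-KO replicate 2.

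Other amino-acid transporters went both ways. Of 23 genes, 16 were tested, 4 were higher and 4 lower, around a median of -0.05 on the log2 scale. These are 25.0% of the tested genes in each direction, beside 6.70% higher and 5.65% lower of all genes. The higher genes were Slc1a4 and Slc1a5, for exchangers of small neutral amino acids, Slc38a2, for the sodium-coupled transporter SNAT2, and Slc7a1, for the cationic transporter CAT1. Their log2 fold changes were 1.63 (adjusted p = 0.00213) for Slc1a4, 0.84 (0.0165) for Slc7a1, 0.72 (9.7e-05) for Slc38a2 and 0.47 (0.00890) for Slc1a5. The lower genes were Slc7a2 and Slc7a7, for transporters of cationic amino acids, Slc43a2, for a transporter of large neutral amino acids, and Slc38a9, for the lysosomal arginine sensor. They fell by 0.80 (0.0195), 0.60 (0.0189), 0.59 (0.0136) and 0.41 (0.00954), respectively. Slc43a2 was abundant, with 138.8 ± 4.76 RPKM in control and 94.6 ± 20.7 in AclyM-KO, so the carriers of large neutral amino acids LAT1 (Slc7a5) and LAT4 (Slc43a2) differed in direction. Slc1a5 lost its call without control replicate 2 or control replicate 3, with an adjusted p of up to 0.0568. With DESeq2, without control replicate 1 and at an adjusted p of 0.01, only Slc38a2, Slc1a4 and Slc1a5 were called higher, and Slc7a1 was not. The number of lower genes dropped to 0 without control replicate 1 and to 2 without control replicate 2 or control replicate 3.

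All 20 cytosolic aminoacyl-tRNA synthetase genes were tested, with a median of 0.13. Of the 20, 4 rose and 1 fell, the latter a share near that of all genes (6.70% higher and 5.65% lower). The 4 higher genes were Cars with a log2 fold change of 0.74 (adjusted p = 0.00179), Yars with 0.52 (0.0176), Aars with 0.52 (0.00423) and Gars with 0.44 (0.0197), which charge tRNAs with cysteine, tyrosine, alanine and glycine. Qars, for glutamine, fell by 0.28 (0.0479). Aars shares 1326 exon bases with Exosc6 on the same strand, so reads there may stem from either gene. When any 1 control library was left out, 2 synthetase genes were higher and Qars was no longer called, which was also lost without AclyM-KO replicate 3.

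Of 32 other genes of amino-acid sensing by mTORC1, all were tested, 1 was higher and 2 were lower, a share near that of all genes, and the median was 0.01. Rheb, the GTPase that turns on mTORC1, rose by 0.31 on the log2 scale (adjusted p = 0.0467), Rragd, a Rag GTPase, fell by 0.42 (0.00351), and Fnip2, a partner of folliculin, fell by 0.23 (0.0391). Mtor, the kinase itself, had the next smallest adjusted p (0.115) at -0.21 on the log2 scale. Rheb and Fnip2 each lost the call when any 1 control library or AclyM-KO replicate 3 was left out, and 2 genes were higher without AclyM-KO replicate 2.

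Since Slc7a11 is also a target of the oxidant-sensing factor NRF2, 8 genes of the NRF2 pathway were examined, all of which were tested. Of these, 5 were higher and none lower, with a median of 0.48. The share higher was 62.5%, beside 6.70% of all genes. The genes that rose were Nqo1, Gclc, Srxn1, Txnrd1 and Gclm. Their log2 fold changes were 1.45 (adjusted p = 0.00627) for Nqo1, 0.70 (0.00191) for Gclc, 0.66 (0.000256) for Srxn1, 0.50 (0.00189) for Txnrd1 and 0.46 (0.00855) for Gclm. The remaining genes of the list did not pass the threshold. They were Hmox1 with 0.17 (0.0989), Keap1 with 0.07 (0.620) and Nfe2l2, the gene of NRF2 itself, with -0.02 (0.860). No gene of this list was lower with DESeq2 or at an unadjusted p under 0.05.

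Chaperones and sensors of the ER, which mark the unfolded protein response that can also reach Atf4, had a median of -0.02 over 11 tested genes. Sdf2l1 (log2 fold change 0.41, adjusted p = 0.00766) and Hspa5, the chaperone BiP (0.30, 0.0275), were higher, and Ern1, the sensor IRE1, fell by 0.35 (0.0125), which is 18.2% of the list higher and 9.09% lower, beside 6.70% and 5.65% of all genes. Calr, for the chaperone calreticulin, had the next smallest adjusted p (0.0974) at 0.20 on the log2 scale. Hspa5 and Ern1 lost the call when any 1 control library was left out, and Sdf2l1 without control replicate 1.

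**Figure D4:**
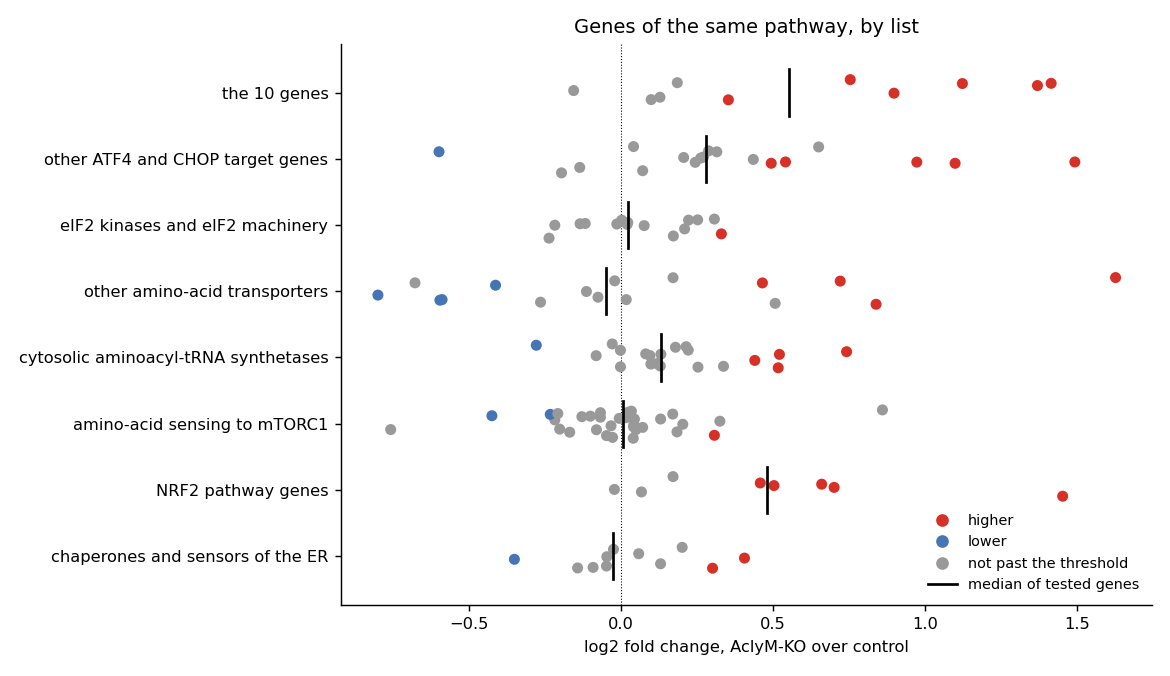
Log2 fold change in AclyM-KO over control (x axis) of each tested gene, by list (y axis), with red for higher, blue for lower, grey for genes that did not pass the threshold, and a black line for the median. The medians are 0.55 for the 10 genes, 0.48 for the NRF2 pathway and 0.28 for the other ATF4 and CHOP targets, and between -0.05 and 0.13 for the remaining lists.

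Proliferation markers moved with the same libraries. All 10 markers were tested, 9 were higher and none lower, which is 90.0% higher, beside 6.70% of all genes. Their summed level was 614.7 to 705.2 CPM in control and 843.2, 1184 and 909.1 CPM in AclyM-KO replicates 1 to 3. AclyM-KO replicate 2 was the highest knock-out library for 9 of these 10 markers, as it was for Atf4, Ddit3, Trib3, Asns, Slc7a5, Slc7a11 and Eif2ak4. The part of proliferation and of the lower macrophage markers in the changes of the 10 genes was not tested.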

How the data were processed

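Libraries were prepared with the KAPA mRNA HyperPrep kit, which keeps strand. The authors used STAR 2.5.2b for alignment to mm10, kept alignments above a mapping quality limit, and had HOMER2 sum the raw tags of each RefSeq transcript. These deposited counts were used as they stand. CASAVA 1.8.2 is also named in the submitters' processing notes. Counting used the default settings of HOMER2, and the RefSeq release is not given in the sources used here. Of 12 columns, 6 match the labelled samples, and the other 6 were not used here. Of 35745 transcripts, 35435 matched a symbol in the RefSeq table and 193 in GENCODE M21.

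The transcript with the highest total stood for each gene. After filterByExpr and TMM normalization, 11470 genes were tested with the edgeR 4.0.16 quasi-likelihood test (genotype only, R 4.3.3) with Benjamini-Hochberg adjustment, and an adjusted p of 0.05 or less was called. Intervals are 95% and use the quasi-likelihood degrees of freedom. CPM refer to TMM-scaled totals of 1 transcript per gene, whose totals were 11120034 to 25814853, and the biological coefficient of variation was 8.9%. RPKM used the total over all transcripts and GENCODE M21 transcript lengths on the same build. Low counts limit the precision for Trib3 and Slc7a11, which had 33 to 51 counts in control libraries. The same holds for some genes of the other lists with large fold changes. Control replicates 1 to 3 held 10, 17 and 15 counts for Nqo1, 18, 37 and 24 for Slc1a4, and 24, 27 and 25 for Phgdh. The steps were tested on simulated counts.

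The 10 genes and all lists were chosen with earlier results of these data known. Named genes are the 10 genes, Acly, the 4 genes with the smallest adjusted p in each other pathway list, those that make up a count of 5 or fewer, and the 3 genes most like Asns, with exceptions named as such in the text. Alternatives were DESeq2 1.42.0, limma 3.58.1 (voom with sample weights), other normalizations, filters, transcripts, thresholds and depth, the replicate number as a block, and each library left out.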

Additional observations from a re-analysis of the deposited data

How the results depend on the processing

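Of the 10 genes, 5 or 6 were called higher and 0 lower in all 18 alternatives. Signs reversed for Ddit3 without AclyM-KO replicate 2 (-0.005, range -0.005 to 0.274 with 1 library left out) and for Ddit4 without control replicate 2 (-0.004) or AclyM-KO replicate 3 (-0.054, range -0.054 to 0.299). Neither was called. The number of all genes called was 1416. With each transcript tested on its own, 2446 of 18933 transcripts were called, and by the main transcript of each gene 815 genes were higher and 658 lower, compared with 768 and 648. The number of genes was 2187 with limma-voom, 557 at an adjusted p of 0.01, 719 with a change of 0.5 or more on the log2 scale also required, and 598 to 2136 with 1 library left out, the highest without AclyM-KO replicate 2. With limma-voom, 1 eIF2 gene was lower.

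At an adjusted p of 0.01, 0 eIF2 genes, 2 synthetases, 0 sensing genes and 1 ER gene were higher, and 1 other transporter, 0 synthetases, 1 sensing gene and 0 ER genes were lower. With 0.5 or more on the log2 scale also required, the counts for eIF2, sensing and ER genes higher, and for synthetases, sensing and ER genes lower, were 0, and Slc3a2 was no longer called. Qars was not called lower with RLE size factors, total counts only or counts summed over transcripts (0 synthetases lower). With summed counts, 0 sensing genes were higher, and with total counts only, 1 was lower.

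With 1 library left out, 5 to 8 ATF4 and CHOP targets, 0 to 1 eIF2 genes, 2 to 5 synthetases, 0 to 2 sensing genes and 0 to 3 ER genes were higher. Lower were 0 to 1 eIF2 genes, 0 to 4 other transporters, 0 to 1 synthetases, 1 to 2 sensing genes and 0 to 1 ER genes. The cause of these changes was not tested, beyond the fewer libraries in the fit.

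Same-numbered libraries did not deviate together (Pearson r of 0.09, 0.11 and -0.05 across genes), and not every library correlated best with its own number. With the replicate block 1583 genes were called, 6 of the 10 genes higher and 7 ATF4 and CHOP targets higher. RPKM relative to the total over 1 transcript per gene were higher throughout (Atf4 in control 67.3 in place of 38.8), with the same order.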
